A study of Drosophila melanogaster with 2 samples.

Results

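Heat shock and chaperonin genes of Drosophila melanogaster were examined for regions bound by CG42726 that carries a tag of enhanced green fluorescent protein (eGFP). Members were all protein-coding genes whose symbol begins with Hsp, Hsc70 or CCT and a digit, which gave 32 of 13945 protein-coding genes on the main chromosomes. They comprised 14 heat-inducible genes, 5 heat shock cognates, 8 genes of the cytosolic chaperonin, 4 of the mitochondrial chaperonin, and Hsp110. The chromatin came from whole embryos of 0 to 24 hours of a transgenic line that carries CG42726-eGFP, and was precipitated with an antibody against GFP (chromatin immunoprecipitation followed by sequencing, ChIP-seq). There were 2 biological replicates of this 1 group. The labels name no heat treatment, and the embryos mix all stages and cell types of that span. No control immunoprecipitation was analysed here. The files give lists of called regions with a signal for each. Read counts are not among them, and the sequencing depth behind each list is unknown.

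Heat shock proteins hold unfolded proteins and help them refold. The heat-inducible genes are switched on by heat shock factor, which binds repeated short elements in their promoters, and Hsp70 is the classic fly example of a promoter with a polymerase paused before heat arrives. The cognates are made without stress and serve protein folding in the cytosol, the endoplasmic reticulum and the mitochondrion. The cytosolic chaperonin is a ring-shaped chamber built from different CCT subunits that folds actin and tubulin, and Hsp60 forms the corresponding chamber in mitochondria. CG42726 is known only by its gene number, and the study asks where on the genome its fusion protein was found.

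The sequences around the summits of 3 regions near members are given as examples. A summit is the position of highest signal within a region, and each line gives it with the 50 bases to either side, from the RefSeq assembly of Release 6 (dm6). Capitals mark ATCGATA on either strand, a sequence searched for after the summits of the strongest regions had been seen. The first is the region with the highest signal that had a member's start as its nearest start. The next lies within 1 kb of Hsp68 but beside the start of SMC1, and the last lies in the 5' UTR of Hsc70-4.
Hsp110, chr3L:14036929-14037029, plus strand: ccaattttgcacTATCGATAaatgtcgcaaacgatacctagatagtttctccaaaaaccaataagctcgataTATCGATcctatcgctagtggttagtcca
SMC1 and Hsp68, chr3R:24058195-24058295, minus strand: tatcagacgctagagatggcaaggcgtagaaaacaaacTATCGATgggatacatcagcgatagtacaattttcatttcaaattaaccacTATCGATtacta
Hsc70-4, chr3R:15242677-15242777, plus strand: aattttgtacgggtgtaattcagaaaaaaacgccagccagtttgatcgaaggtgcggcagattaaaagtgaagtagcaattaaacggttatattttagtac
The Hsp110 window held 3 matches to ATCGATA, which overlap where the palindrome is complete, and the SMC1 window held 2. The Hsc70-4 window held 0. So did the window of the strongest region near any member, with a signal of 518, beside CG30349 and CCT8, which is not printed. Of the 9 conservative regions at members, 3 had a match.

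The promoters of 4 heat-inducible genes are shown next, because the called and uncalled regions described for this class are read against them. Each line is 180 bases in the direction of transcription, and capitals mark the heat shock elements (GAANNTTC or TTCNNGAA) and the TATA box (TATAAA).
Hsp70Ba, chr3R:12467747-12467926, minus strand: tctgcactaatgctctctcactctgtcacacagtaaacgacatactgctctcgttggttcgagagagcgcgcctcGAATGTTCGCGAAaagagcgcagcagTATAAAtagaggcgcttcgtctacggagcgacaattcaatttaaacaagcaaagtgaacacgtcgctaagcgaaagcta
Hsp70Aa, chr3R:11956515-11956694, minus strand: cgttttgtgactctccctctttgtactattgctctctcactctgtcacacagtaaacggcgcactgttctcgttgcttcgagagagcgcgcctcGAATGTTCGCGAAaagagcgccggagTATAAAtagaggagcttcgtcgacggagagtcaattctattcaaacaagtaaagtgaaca
Hsp68, chr3R:24057281-24057460, minus strand: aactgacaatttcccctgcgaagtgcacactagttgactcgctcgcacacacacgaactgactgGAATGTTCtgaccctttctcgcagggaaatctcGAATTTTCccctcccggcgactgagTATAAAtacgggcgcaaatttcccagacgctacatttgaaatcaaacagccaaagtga
Hsp83, chr3L:3193066-3193245, plus strand: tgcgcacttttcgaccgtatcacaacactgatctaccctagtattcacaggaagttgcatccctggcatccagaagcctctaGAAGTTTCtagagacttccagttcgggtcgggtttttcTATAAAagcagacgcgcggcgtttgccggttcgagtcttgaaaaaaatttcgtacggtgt
In the Hsp70Ba line 2 overlapping elements begin at positions 76 and 81 and the TATA box begins at position 102. The Hsp70Aa line has the same arrangement, with elements at positions 95 and 100. Hsp68 has 2 separate elements, at positions 65 and 98, and Hsp83 has 1 match, at position 83.

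Regions were kept by their irreproducible discovery rate (IDR), which measures how well the ranks of a region agree between sets of calls, at a limit of 0.01. An IDR in the pooled or single-replicate lists does not measure agreement between the biological replicates. In the list that compares the biological replicates (the conservative list, 2752 regions), 7 of the 32 members had a summit at most 1 kb from a start. This is 21.9% of the members (exact Clopper-Pearson 95% interval 9.28 to 40.0), against 20.6% of all protein-coding genes, so the members as a whole stood near the background. The 7 were Hsp68 among the heat-inducible genes, the cognates Hsc70-4 and Hsc70-5, the cytosolic chaperonin genes CCT5 and CCT8, the mitochondrial chaperonin gene Hsp60A, and Hsp110. By class this was 1 of 14 heat-inducible genes, 2 of 5 cognates, 2 of 8 CCT genes, 1 of 4 mitochondrial genes and Hsp110 itself. When each summit counted only for the gene with the nearest start, 5 of 32 members were left (15.6%), against 15% of all genes. Hsp68 and CCT5 dropped out under this count, which left 0 of 14 heat-inducible genes and 1 of 8 CCT genes.

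The other lists gave larger or smaller counts, and the background moved with them. In the list from pooled reads (4044 regions) 12 of 32 members had a summit (37.5%, exact interval 21.1 to 56.3), against 27.3% of all genes. By nearest start the pooled list gave 10 of 32 (31.2%), against 20.4% of all genes. The list of replicate 1 (2803 regions) gave 11 of 32 members (34.4%), against 21.9% of all genes, and 9 by nearest start (28.1%), against 16% of all genes. The list of replicate 2 (1629 regions) gave 6 of 32 (18.8%), against 12.7% of all genes, and 3 by nearest start (9.38%), against 9.06% of all genes. All 6 of the replicate 2 members, Hsp68, Hsc70-4, Hsc70-5, CCT5, CCT8 and Hsp110, were called in all 4 lists. In replicate 2 the calls of Hsp68, CCT5 and CCT8 came only through regions nearer to another gene's start. The intervals cover counting error over genes only, and genes that share a region are not independent.

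**Figure D1:**
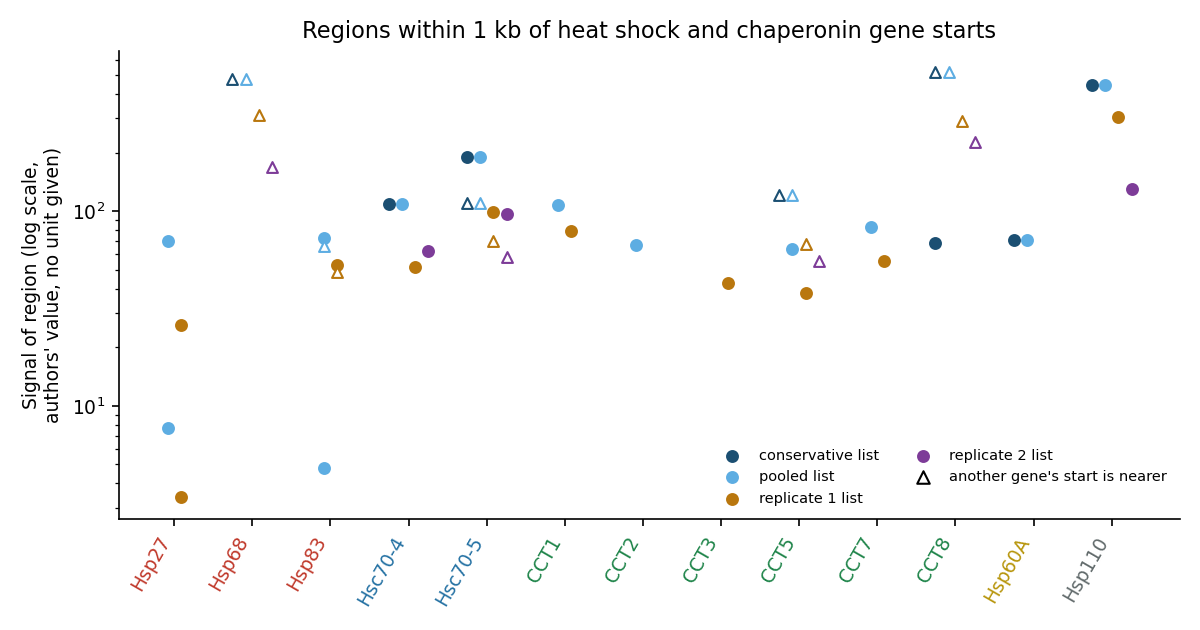
Signal of each called region within 1 kb of a member's start, on a log axis and in the authors' unit, for the conservative, pooled, replicate 1 and replicate 2 lists; gene names are coloured by class, and open triangles mark regions for which another gene's start was nearer. Hsp68, CCT8 and Hsp110 stand highest in every list, and the points of Hsp68 are all triangles.

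The strongest regions at the members lay near CCT8, Hsp68 and Hsp110, but at CCT8 and Hsp68 the summit sat beside the start of a neighbour. The signal is the authors' own value without a stated unit, and serves only to rank regions within a list. Regions found in both the conservative and the pooled list carry the same signal in both, so these lists are not separate measurements. The strongest region of each of the 7 members had a median signal of 189 in the conservative list, against 114 for the 2866 genes with a summit. Counted by nearest start, without the regions beside CG30349 and SMC1, the medians were 109 for 5 members and 110 for 2092 genes. In the pooled list the medians were 109 for 12 members and 96.9 for 3808 genes. By nearest start the pooled medians were 78.0 for 10 members and 92.9 for 2845 genes, so the order turned. In replicate 1 they were 67.7 for 11 members and 68.2 for 3056 genes, and by nearest start 52.6 for 9 and 65.8 for 2231. In replicate 2 they were 113 for 6 members and 62.6 for 1776 genes, and by nearest start 96.7 for 3 and 61.4 for 1263. The order of members and background was therefore not the same in the single replicates.

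Among the heat-inducible genes, the only region of the conservative list was the one near Hsp68, an Hsp70 relative outside the Hsp70 clusters. It covered 24058142 to 24058324 on 3R with a signal of 476, rank 38 of the list. Its signal was 311 in replicate 1 (rank 27) and 168 in replicate 2 (rank 56). The summit lay 935 bp upstream of Hsp68 and 42 bp from the start of SMC1, which encodes a cohesin subunit, and SMC1 was also the nearest gene in both single-replicate lists. The printed Hsp68 promoter, with its 2 heat shock elements, lay outside the region. A window of 2 kb in place of 1 kb added no member to the conservative list, and at 935 bp Hsp68 lay closest to the edge of the window.

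Hsp83 and Hsp27 had regions of low rank in the pooled list and in replicate 1, and none in the conservative list or in replicate 2. Hsp83, the fly Hsp90, is heat-inducible but also made at a high level without stress. Its pooled region had a signal of 72.6 with a summit 36 bp upstream of the inner start, 6 bases before the TATA box of the printed promoter, which begins at position 121. In replicate 1 the same summit position had a signal of 52.6. A further region with a signal of 66.5 in the pooled list and 48.4 in replicate 1 lay 504 bp upstream of the Hsp83 gene and 26 bp from the start of CG14965. The pooled list held a last region inside the first kb of Hsp83, which overlapped the one with a signal of 72.6. Its signal was 4.79, lower than all but the weakest regions of that list (99.3% of regions were higher).

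Hsp27, a small heat shock gene, had a pooled region 168 bp upstream of its start with a signal of 69.9, and 67.3% of the pooled list was higher. The corresponding region of replicate 1 had a signal of 26.0, and 97.5% of that list was higher. A weaker region that overlapped it, with its summit in the 5' UTR, had a signal of 7.69 in the pooled list and 3.39 in replicate 1. Hsp27 is 1 of 6 members in the small heat shock gene cluster at 67B, which spans 14184 bp of 3L (9371511 to 9385694). The conservative list had 0 regions in this span and replicate 2 had 0, while the pooled list and replicate 1 had 2 each, both at Hsp27.

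**Figure D2:**
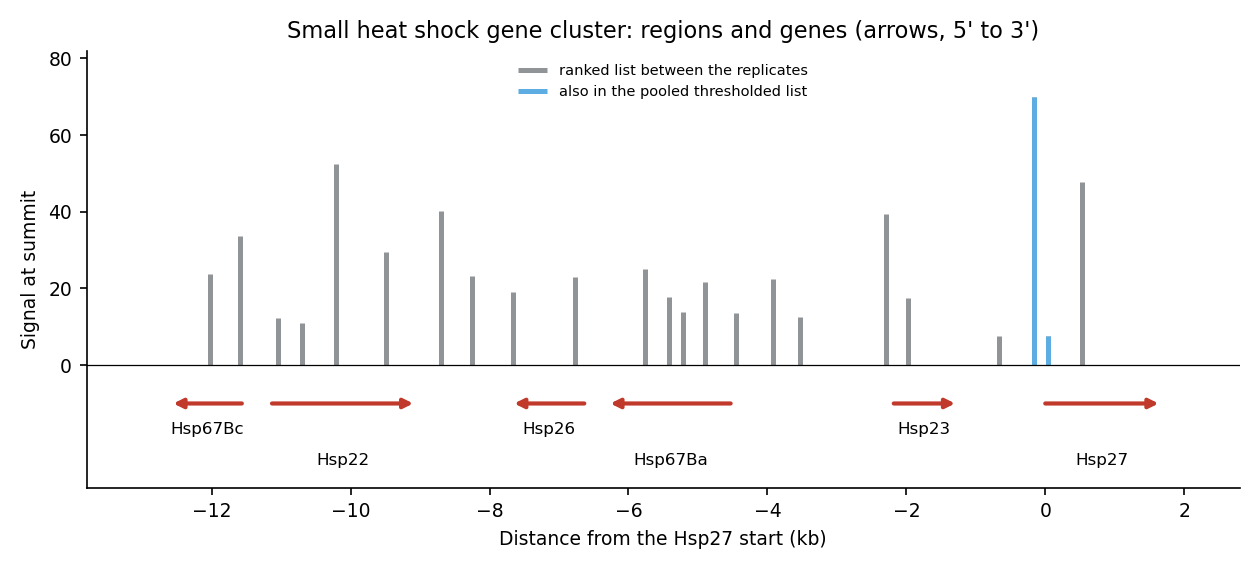
Signal of all 23 regions of the ranked list between the replicates across the small heat shock gene cluster, against distance from the Hsp27 start in kb; arrows show the 6 member genes, and the 2 blue lines are the regions also in the pooled thresholded list. The highest line, at 69.9, is the region upstream of Hsp27, and the other regions reach 52.5.

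The 6 Hsp70 genes had no region in any of the 4 lists that passed the limit. They are near copies of each other. Over the 15 pairs the promoters were 91.2% to 100% identical (median 93.1%). Within 500 bp of the start, the share of 31-base sequences found once in the genome was 22.7% at Hsp70Aa, 18.1% at Hsp70Ab and 28.0% at Hsp70Ba. It was 1.85% at Hsp70Bb, 3.19% at Hsp70Bbb and 0 at Hsp70Bc. All 6 lay under 50%, as did 320 of all 13945 genes (2.29%). The other 26 members had between 52.3% (Hsp60D) and 100%. Neither the read length nor the treatment of reads that match several places is given in the sources used here, so how many reads the Hsp70 copies could receive is unknown, and their part in the missing calls was not tested.

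Hsp70Ba was the exception among the copies in the ranked lists, which hold all candidate regions with their IDR. A −log10 IDR of 2 is the limit of the thresholded lists. Hsp70Ba had a region at 12467704 to 12467999 on 3R that reached 3.03 in the pooled ranked list with a signal of 94.9, and 1.14% of that list was higher. In replicate 1 the region reached 3.27 with a signal of 68.4. In replicate 2 it had a value of 0.217 with a signal of 25.0, and between the replicates it reached 1.91. Its pooled summit is position 75 of the printed promoter, the base before the first heat shock element, and the summits of replicates 1 and 2 are at positions 77 and 72. Although past the limit, the region is absent from the pooled and replicate 1 thresholded lists. In all, 203 pooled regions and 121 of replicate 1 past the limit were absent in this way, and the deposited records name a further input to these lists without saying what it removed.

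The other Hsp70 copies had weak ranked regions or none. Between the replicates the signals were 6.77 at Hsp70Aa, 28.9 at Hsp70Ab and 30.2 at Hsp70Bb, each with a −log10 IDR of at most 0.282, and Hsp70Bbb and Hsp70Bc had no ranked region.

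Of the cognates, Hsc70-5 and Hsc70-4 were called in all 4 lists and the other 3 in none. Hsc70-5, the mitochondrial Hsp70, had a region on its own start, from 14255870 to 14256165 on 2R, with a signal of 189 in the conservative list (rank 388). The summit lay 43 bp downstream of a start, in the 5' UTR. The signal there was 98.9 in replicate 1 and 96.7 in replicate 2. A second region lay 283 bp upstream and 18 bp from the start of CG8531, with signals of 110 in the conservative list, 70.6 in replicate 1 and 58.1 in replicate 2. In each of these lists the region at Hsc70-5 was the stronger of the pair.

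Hsc70-4, the main cytosolic Hsp70 of unstressed cells, had a region from 15242579 to 15242874 on 3R with a signal of 109 in the conservative list (rank 1239) and its summit 40 bp downstream of a start, in the 5' UTR. The signal was 51.4 in replicate 1 and 62.2 in replicate 2, with summits 27 and 14 bp downstream. Hsc70-3, the Hsp70 of the endoplasmic reticulum (BiP), had no ranked region between the replicates. Its strongest pooled candidate had a signal of 45.6, a −log10 IDR of 1.32 and a summit 6 bp upstream of a start, and in replicate 1 the candidate reached 1.88 with a signal of 34.2. Hsc70-1 had a between-replicate value of 0.568, and Hsc70-2 had no region in that ranked list.

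**Figure D3:**
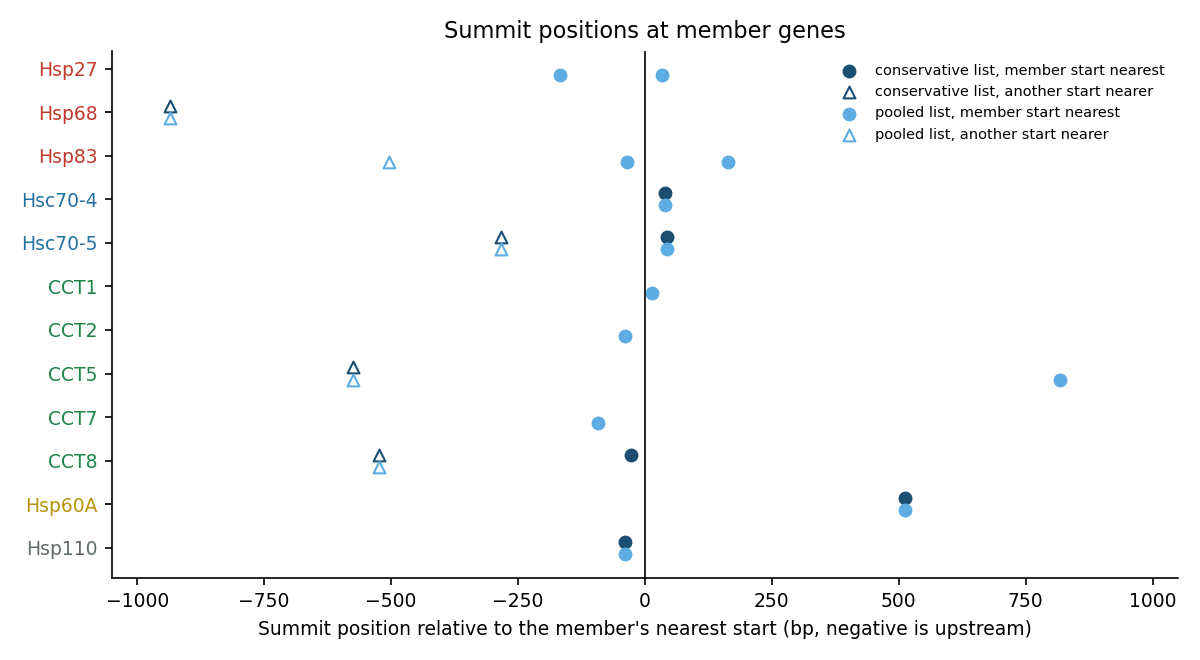
Position of each called summit relative to the nearest start of the member, in bp with negative values upstream, for the conservative and pooled lists; filled circles are summits whose nearest coding start is the member's, and open triangles are nearer to another gene. Circles gather close to 0 for Hsc70-4, Hsc70-5, CCT1, CCT2 and Hsp110, while the triangles of Hsp68, CCT5, CCT8 and Hsp83 lie more than 500 bp upstream.

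The cytosolic chaperonin genes were called more widely in the pooled list and in replicate 1 than in the conservative list. The pooled list had 5 of the 8 (CCT1, CCT2, CCT5, CCT7 and CCT8), replicate 1 had 5 (CCT3 in place of CCT2), and the conservative list and replicate 2 had CCT5 and CCT8. With these small classes the exact interval of 5 of 8 runs from 24.5% to 91.5%. It includes the 27.3% of all genes in the pooled list but not the 21.9% in replicate 1. By nearest start the pooled list and replicate 1 each had 4 of 8 (15.7% to 84.3%), against 20.4% and 16% of all genes. The conservative list then had 1 of 8, against 15%, and replicate 2 had 0 of 8, against 9.06%. The class was chosen with earlier results known, and no test was run.

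The region near CCT8 had the highest signal near any member in the conservative and pooled lists and in replicate 2, but its summit was at another gene's start. In replicate 1 the regions near Hsp68 and at Hsp110 were higher. The region, from 8907419 to 8907615 on 2R, had a signal of 518 in the conservative list (rank 25), 291 in replicate 1 and 226 in replicate 2. The summit lay 524 bp upstream of CCT8 and 4 bp from the start of CG30349, which is transcribed away from it. A separate region 27 bp upstream of CCT8 had a signal of 69.0 (rank 2372) in the conservative list, with a −log10 IDR of 2.15. In the pooled ranked list that region reached 1.65, and it was not in the pooled or single-replicate thresholded lists.

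CCT5 was called mainly through Oda, the ornithine decarboxylase antizyme gene that starts 538 bp from it in the other direction. The region, from 12174079 to 12174374 on 2R, had a signal of 121 in the conservative list (rank 1030), 67.7 in replicate 1 and 55.1 in replicate 2, with the conservative summit 37 bp from the Oda start and 575 bp upstream of CCT5. Regions nearer to CCT5 differed between lists. In replicate 1 a region with a signal of 38.0 lay 59 bp downstream of the CCT5 start, and in the pooled list one with a signal of 63.9 lay 817 bp downstream of a start, within coding sequence.

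At the remaining called subunits the summits lay at the gene's own start. CCT1 had a signal of 108 in the pooled list and 79.0 in replicate 1, both 14 bp downstream of the start. CCT7 had 83.3 in the pooled list and 55.3 in replicate 1, with summits 93 and 91 bp upstream. CCT2 was called only in the pooled list (67.1, summit 40 bp upstream), and CCT3 only in replicate 1 (42.7, summit 31 bp downstream). CCT4 and CCT6 were called in none, and their strongest candidates between the replicates had signals of 50.2 and 51.9. Those candidates had their summits 606 and 401 bp upstream of the gene's start. Another coding gene starts 417 bp from CCT6.

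Each of the 8 CCT promoters held ATCGATA between 250 bases before and 50 bases after a start. These 31-base stretches of 6 of them, in the direction of transcription, are centred on the match nearest to a start, and capitals mark all matches.
CCT1, chr3R:22491607-22491637, minus strand: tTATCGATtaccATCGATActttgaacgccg
CCT2, chrX:9089480-9089510, plus strand: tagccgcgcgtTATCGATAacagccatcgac
CCT3, chr3R:16647604-16647634, plus strand: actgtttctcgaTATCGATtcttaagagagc
CCT4, chr2L:12692955-12692985, minus strand: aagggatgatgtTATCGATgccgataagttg
CCT6, chrX:15746593-15746623, plus strand: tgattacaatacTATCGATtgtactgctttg
CCT7, chr3R:8801314-8801344, plus strand: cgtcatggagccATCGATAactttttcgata
The match lay within 40 bases of the start at CCT2, CCT3, CCT4 and CCT6, and also at CCT5 and CCT8, which are not printed. At CCT1 it lay 183 bases upstream and at CCT7 235 bases upstream. The sequence was in 20.2% of all protein-coding promoters, in 1 of 14 heat-inducible promoters (Hsp83), 2 of 5 cognate promoters and 1 of 4 mitochondrial chaperonin promoters. Within 100 bases to either side of a start it was found at 6 of 8 CCT genes, against 16.6% of all genes. CCT4 and CCT6 held the sequence and were called in none of the 4 thresholded lists. From this match to the nearest pooled summit was 22 bp at CCT2, 142 bp at CCT7 and 197 bp at CCT1. It was 488 bp at CCT8 and 544 bp at CCT5, so in the pooled list the match and the summit mostly lay apart. These distances depend on the list. At CCT8 the conservative summit 27 bp upstream, absent from the pooled list, had a match within 50 bp. The CCT3 summit of replicate 1 had a match within 50 bp.

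Hsp60A, the main mitochondrial chaperonin gene, was the 1 of 4 with a region. In the conservative list the region, from 11108846 to 11109141 on X, had a signal of 71.3 (rank 2284), and the summit lay in an intron, 512 bp downstream of a start. Its −log10 IDR of 2.04 was just past the limit. A stronger candidate with a signal of 83.2, 78 bp upstream of a start, reached 1.85 and so was not in the list. Hsp60A was in the pooled list but in neither single-replicate list. Hsp60B and Hsp60C, which act in spermatogenesis, and Hsp60D had no called region in any list, with between-replicate values of 0.368, 0.257 and 0.614.

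Hsp110, a large relative of Hsp70 that acts as its nucleotide exchange factor, had the strongest region centred at a member's own start. It covered 14036900 to 14037059 on 3L with a signal of 442, rank 47, in the conservative list. The signal was 303 in replicate 1 (rank 33) and 130 in replicate 2 (rank 98). The summit was 40 bp upstream of the start in the conservative list and in replicate 2, and 37 bp upstream in replicate 1. The nearest start of another coding gene was 2243 bp away, so no neighbour shared this region.

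**Figure D4:**
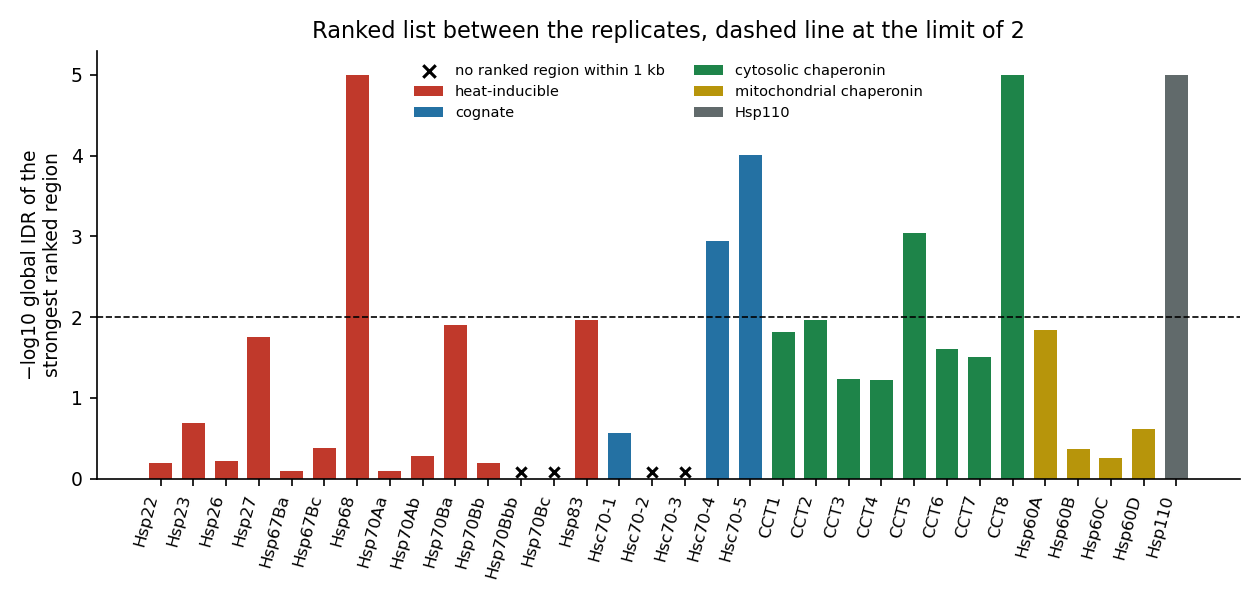
−log10 global IDR, from the ranked list between the replicates, of the strongest ranked region within 1 kb of each member, with bars coloured by class, crosses for members without a ranked region and a dashed line at the limit of 2. Bars of the CCT genes lie between 1.22 and 5, those of the small heat shock genes other than Hsp27 reach at most 0.687, and the Hsp60A bar is its strongest region, not the weaker one that was called. The bars of Hsp68, CCT5 and CCT8 belong to regions nearer to another gene's start.

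Nearly all members had at least a candidate region, and how high it ranked varied by class. Between the replicates, 28 of 32 members had a ranked region within 1 kb (87.5%), against 89.7% of all genes. The strongest candidate of each gene had a median signal of 55.0 for the 28 members and 44.8 for the 12514 genes. By class the medians were 36.5 for 12 heat-inducible genes, 109 for the 3 cognates with a candidate, 75.2 for 8 CCT genes and 38.8 for 4 mitochondrial genes. Over all 5 cognates the pooled ranked list gave a median of 45.6, against 75.2 for the CCT genes, and replicate 1 gave 34.2, against 49.0, so the order of these classes turned. The median −log10 IDR was 0.333 for the heat-inducible genes (0.0977 to 5) and 1.71 for the CCT genes (1.22 to 5). Just outside the limit stood Hsp83 (1.97), CCT2 (1.96), Hsp70Ba (1.91), CCT1 (1.81), Hsp27 (1.75) and CCT6 (1.61). These values describe classes of 3 to 12 genes and no test was run between them. They take any candidate within 1 kb, also one nearer to another gene's start. At CCT5, CCT8 and Hsp68 the strongest candidates were the regions beside Oda, CG30349 and SMC1. The value of 5 at the top of both IDR ranges came from CCT8 and Hsp68. No version by nearest start was made for the ranked lists.

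The classes also differed in how close another gene started, which bears on which gene a summit is counted for. The start of another coding gene lay within 1 kb at 4 of 5 cognates, 7 of 8 CCT genes, 4 of 14 heat-inducible genes and 0 of 4 mitochondrial genes. The median distance to it was 584 bp for the cognates, 472.5 bp for the CCT genes, 2049 bp for the heat-inducible genes and 4867 bp for the mitochondrial genes. The part that this spacing plays in the counts within 1 kb was not tested.

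**Figure D5:**
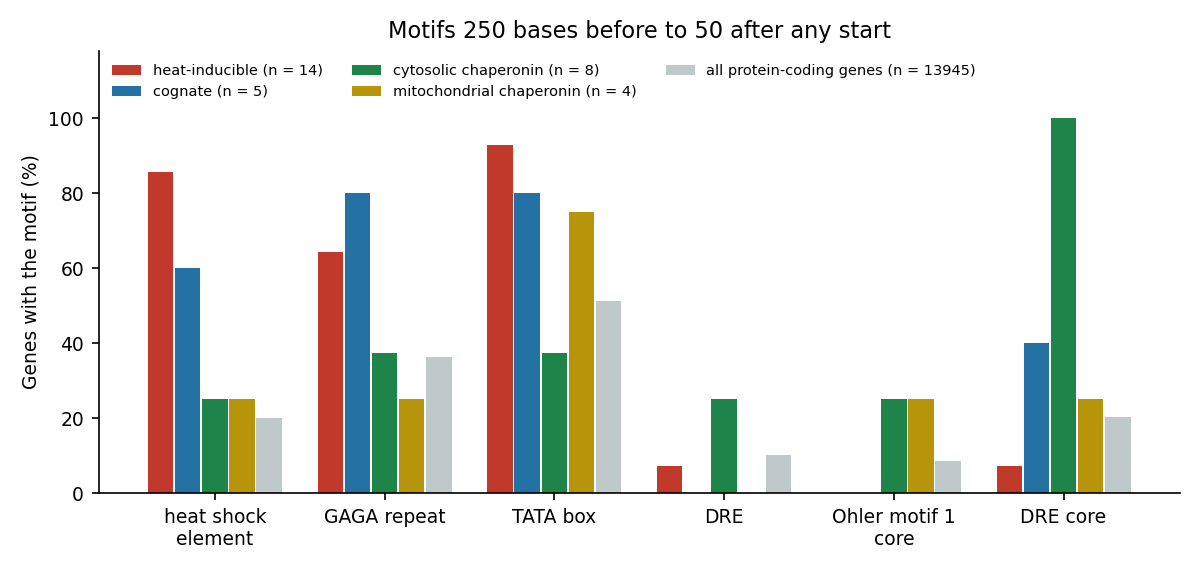
Percentage of genes in each class, and of all 13945 protein-coding genes, with each sequence from 250 bases before to 50 bases after any start; the GAGA repeat is GAGAG, the DRE is TATCGATA, the DRE core is ATCGATA, and Hsp110 is not drawn. The heat shock element stands highest in the heat-inducible class and the DRE core in the cytosolic chaperonin class.

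The sequences searched for in promoters were spread unevenly over the classes. Sequences were searched on both strands from 250 bases before to 50 after any annotated start. The heat shock element was in 12 of 14 heat-inducible genes, 3 of 5 cognates, 2 of 8 CCT genes and 1 of 4 mitochondrial genes, against 19.9% of all genes. TATAAA was in 13 of 14 heat-inducible genes, 4 of 5 cognates, 3 of 8 CCT genes and 3 of 4 mitochondrial genes, against 51.2% of all genes. GAGAG is the core of the GAGA factor motif. It was in 9 of 14 heat-inducible genes, 4 of 5 cognates, 3 of 8 CCT genes and 1 of 4 mitochondrial genes, against 36.3%. Genes with several starts had more sequence searched. From the outermost start alone GAGAG was in 9 of 14 heat-inducible genes and 2 of 5 cognates, against 29.7% of all genes. The heat shock element was then in 10 of 14 heat-inducible genes and 3 of 5 cognates, against 15.9%. The Hsp70 copies, whose promoters are nearly identical, each count as a separate gene in the heat-inducible counts of these 3 sequences. The full DNA replication-related element (DRE), TATCGATA, contains ATCGATA. It was in 4 of 32 members (12.5%), CCT2, CCT5, Hsp83 and Hsp110, against 10.2% of all genes. GGTCACAC, the core of another housekeeping promoter motif, was in 3 of 32 members (9.38%), CCT4, CCT6 and Hsp60A, against 8.71%. For both sequences the members as a whole stood near the share of all genes.

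Around the summits themselves, ATCGATA lay within 50 bp in 3 of the 9 conservative regions at members, against 637 of all 2747 (23.2%). It was in 39 of the 63 regions with a signal of 400 or more (61.9%), which include those of Hsp110 and SMC1. The sequence was searched for after the summits of the strongest regions had been seen, so this share describes them and tests nothing. The third member region with a match was the weak one at CCT8, while the strong region at CG30349 had 0 matches. The heat shock element was within 50 bp of 2 of the 9 summits, at CCT8 and at CG8531 beside Hsc70-5, against 4.48% of all regions. At Hsp83 the strongest pooled summit lay within 50 bp of a heat shock element and of the TATA box. At Hsp27 neither sequence lay within 50 bp of a pooled summit. In the pooled list each was near 2 of 17 summits at members, against 4.70% of all regions for the element and 6.89% for TATAAA.

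Genes that work with these chaperones were examined as a list of 54 symbols, of which 46 were found. In the conservative list 17 of the 46 had a summit within 1 kb (37.0%), against 20.6% of all genes. The pooled list had 21 of the 46 (45.7%), against 27.3% of all genes. Replicate 1 had 18 (39.1%), against 21.9% of all genes, and replicate 2 had 8 (17.4%), against 12.7% of all genes.

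The J-domain proteins, which bring substrates to Hsp70 and start its ATPase, and the nucleotide exchange factors had 7 of 12 in the conservative list. Replicate 1 had 7 of the 12 and replicate 2 had 4. P58IPK, a J-domain protein of the endoplasmic reticulum, had a signal of 254 with its summit 51 bp from a start. DnaJ-1, a cytosolic J-domain protein that is itself heat-inducible, had 248 at 90 bp. Sec63, part of protein import into the endoplasmic reticulum, had 223 at 2 bp. DnaJ-60 had 157, with CG42568 at the same distance, and Roe1, the exchange factor of mitochondrial Hsp70, had 141. The remaining called genes, mrj with 124 and jdp with 84.0, encode further J-domain proteins. Of the 7, jdp alone was below the conservative list's median signal of 102, and it was in neither single-replicate list.

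The Hsp90 partners had 3 of 7. Cdc37, which brings protein kinases to Hsp90, had a signal of 104, Sgt had 71.1 with BicD nearer, and p23 had 65.8. Prefoldin, which hands new actin and tubulin chains to the cytosolic chaperonin, had 1 of 6, and that summit, near Pfdn6, was closer to Su(z)12. Pfdn6 was in neither single-replicate list. Relatives of the small heat shock genes had 0 of 5, with 0 in the pooled and single-replicate lists too. Of 3 mitochondrial protease genes, Lon had a signal of 69.3 and was in neither single-replicate list.

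Regulators of heat shock transcription had 5 of 13. The strongest was at fs(1)h, a bromodomain gene, with a signal of 317 and mys nearer. Nelf-A, a subunit of the factor that holds polymerase paused, had 230.2 with CG3337 nearer. Nelf-E of the same factor had 91.0 and was in neither single-replicate list. CycT, the cyclin of the kinase that releases paused polymerase, had 179 at 49 bp from its start. Trl, which encodes GAGA factor, had 67.2 at 800 bp. Hsf, the heat shock factor gene, was called in replicate 1 alone.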

How the data were processed

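Embryo ChIP-seq of 1 group with 2 biological replicates was analysed on dm6. Whether these were separate collections is not stated. Neither the aligner nor the peak caller is given in the sources used here. Signals are the authors' values in the deposited lists, with no stated scale. The deposited ranked lists add a −log10 global IDR. Without counts, sequencing depth and the resulting precision cannot be given. A thresholded and a ranked list were used for the replicate comparison, the pooled reads and each replicate.

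Summits were set against protein-coding starts of the Ensembl annotation (release 115), and sequence was taken from the RefSeq assembly of Release 6. Members, classes, motifs and gene lists were chosen with earlier results of these data known, and no list was tested. ATCGATA and windows around the outermost start were added after seeing the data. Named genes are members with a summit in any thresholded list, the genes nearest to those summits, and up to 5 listed partner genes a group by signal. Members without a called region, mrj, jdp and Hsf were named after their values were seen. Functions were tested on simulated regions. Alternatives were other lists, windows, starts and signal limits. Python 3.11.15, pandas 2.3.3, numpy 2.4.6, scipy 1.17.1, biopython 1.88, pysam 0.24.0 and matplotlib 3.10.9 were used. Intervals are exact Clopper-Pearson 95% intervals for counting error only.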

Additional observations from a re-analysis of the deposited data

How the results depend on the processing

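Of 80 recomputed values, 22 moved. The other 58 stayed within 1.5 times the reported count, within 1 SD between the replicates for signals, distances and the share of all genes, or within the exact interval for motif shares. These limits are wide: the SD was 179 bp for the median summit distance, which was 43 bp as reported and 174 bp from the outermost start, and 6.51 points for the share of all genes, which was 15% by nearest start. With the pooled list in place of the conservative one, members with a summit numbered 12 in place of 7, heat-inducible genes 3 in place of 1 and CCT genes 5 in place of 2, the share of all genes was 27.3% in place of 20.6%, and the members' median signal was 109 in place of 189. With each replicate left out in turn, the ranges were 6 to 11 for members, 1 to 3 for heat-inducible genes, 2 to 5 for CCT genes, 0 for mitochondrial chaperonin genes in both cases, 12.7% to 21.9% for all genes and 67.7 to 113 for the median signal. The higher counts came without replicate 2. Within 500 bp, 4 members, 0 heat-inducible genes, 1 CCT gene and 0 mitochondrial genes had a summit, with a median signal of 149. By nearest start, 0 heat-inducible genes and 1 CCT gene did, with a median signal of 109. Among regions with a signal above the list median, 0 mitochondrial genes did. The cognate counts were 2 in each setting run. Signals of different lists are not on a shared scale, and the causes of these shifts were not tested. No paired analysis was possible because there is 1 group. The lists give no depth, so a member without a region cannot be told apart from one below the depth of these libraries.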
